A study of Mus musculus with 6 samples.

Results

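The genes described here are 37 genes of homologous recombination and Fanconi repair, taken by symbol from a table of 54232 genes. All 37 were in the table. They were measured in leukaemia cells sorted from the spleens of wild-type C57BL/6J mice that had received cells of Eµ-TCL1 mice with advanced disease by injection into the peritoneum. In the Eµ-TCL1 model an immunoglobulin enhancer drives the TCL1 oncogene in B cells, and the mice develop a CD5-positive leukaemia that resembles human chronic lymphocytic leukaemia (CLL). Leukaemia cells of both groups carry that transgene. Recipients in 1 group (CK1i, 3 libraries) took 50 mg/kg of PF-670462 orally from day 5 after transfer. This compound inhibits casein kinase 1 and was dissolved in 10% kolliphor/PBS. The other group (CTRL, 3 libraries) took that vehicle alone. Dosing ran for 5 days followed by 2 days without it, for 8 weeks in all. The experiment ended when the CTRL mice had at least 60% CLL cells among blood leukocytes, and the labels do not give that share for the CK1i mice. The age of the mice, the number of leukaemia donors and whether each library came from its own mouse are not given in the sources used here. The p-values therefore measure the spread between these libraries, which may be technical.

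Homologous recombination repairs a broken chromosome by copying the sister chromatid, so it works mainly in S and G2 phase. The ends are first cut back to single strands, and BRCA1, PALB2 and BRCA2 then prepare them to pair with the matching sequence. The Fanconi pathway unhooks links between the strands of DNA: a core complex attaches ubiquitin to FANCD2 and FANCI, and the lesion is passed to recombination. ATM and ATR are the kinases that signal breaks and stalled forks. Many of these genes are transcribed most strongly in dividing cells, while others are expressed throughout the cell cycle.

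Libraries held 2472064 to 3105137 counts, and members took 0.0803% to 0.120% of them. Levels are given in CPM, counts scaled to library size with TMM factors, and 1 count was worth 0.326 to 0.401 CPM. Libraries read 3' ends, so levels are compared between libraries and not between genes. The 12 B-cell and CLL markers were all detected well enough to test. Summed levels of 8 NK-cell markers were at most 1.32 CPM, of 8 neutrophil markers at most 3.62 CPM, of 6 dendritic-cell markers at most 3.34 CPM and of 5 platelet markers at most 2.00 CPM. Of these, 2 NK-cell, 4 neutrophil and 3 platelet markers had no count in any library, among them Ncr1, Gzmb, Ly6g, Mpo and Pf4. The other markers of these lists had counts. The 10 monocyte and macrophage markers summed to 43.1 to 99.5 CPM across CK1i libraries and 45.8 to 78.2 CPM across CTRL libraries. For the 10 T-cell markers found, mostly Lck, these ranges were 118 to 166 and 105 to 123 CPM. The macrophage marker Cd68 had a log2 fold change of 0.50 ± 0.18 (SE) and its part in the members' differences was not tested. For 7 plasma-cell markers they were 1029 to 2187 and 1720 to 2538 CPM, for 8 stromal and endothelial markers 163 to 177 and 176 to 191 CPM, and the 7 erythroid markers found summed to at most 5.68 CPM. CTRL replicate 1 lay apart on the first principal component, at 31.4 where the other libraries lay between -12.4 and 4.68.

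The promoters of some members with higher values in CK1i libraries are shown first, as examples, because they carry letters that the choice of members did not use. RefSeq windows on GRCm38.p6, from 250 bases before to 50 bases after an annotated start, were found for 29 of the 37 members. Rad54b and Fancd2 had none. Each stretch below has 60 bases, written 5′ to 3′ in the gene's direction, and lies outside the gene as GENCODE annotates it. Capitals in the first set mark a match to the E2F motif, the site of the factors that switch on S phase genes.
Brca2: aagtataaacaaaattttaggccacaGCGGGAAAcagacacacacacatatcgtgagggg
Bard1: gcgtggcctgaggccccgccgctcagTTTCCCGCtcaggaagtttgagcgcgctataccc
Chek2: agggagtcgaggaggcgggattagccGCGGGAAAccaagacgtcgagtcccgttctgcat
These lie at chr5:150522427-150522486 on the plus strand for Brca2, chr1:71103148-71103207 on the minus strand for Bard1 and chr5:110839805-110839864 on the plus strand for Chek2. The match begins 168, 209 and 152 bases before the RefSeq start. Chek2 is shown because it holds the same letters as Brca2 with a log2 fold change of -0.043, where that of Brca2 was 0.97.

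Capitals in the second set mark CCAAT or its reverse, the site of the factor NF-Y, in members without an E2F match.
Rad51ap1: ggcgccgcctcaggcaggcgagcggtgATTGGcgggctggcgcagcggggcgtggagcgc
Brip1: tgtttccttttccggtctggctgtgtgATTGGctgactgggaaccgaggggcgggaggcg
Rad54l: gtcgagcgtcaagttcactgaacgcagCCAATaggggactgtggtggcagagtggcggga
Brca1: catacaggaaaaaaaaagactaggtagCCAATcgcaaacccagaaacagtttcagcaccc
Mre11a: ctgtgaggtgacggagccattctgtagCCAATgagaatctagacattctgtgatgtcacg
The first 4 lie on the minus strand, at chr6:126939591-126939650 for Rad51ap1, chr11:86201195-86201254 for Brip1, chr4:116123708-116123767 for Rad54l and chr11:101552009-101552068 for Brca1. Mre11a lies on the plus strand at chr9:14784589-14784648. The match begins 36, 34, 50, 86 and 38 bases before the RefSeq start. Mre11a is shown because it holds CCAAT with a log2 fold change of -0.19, and Palb2, Atrip and Fance also hold it with values below 0. Other members with higher values, such as Fancm, Fancb and Xrcc3, hold it too and are not shown.

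The search covered both strands with 3 motifs: E2F as TTTCCCGC, TTTCGCGC, TTTGCCGC or TTTGGCGC, NF-Y as CCAAT, and CHR, the cell cycle homology region of mitotic genes, as TTTGAA. No match of 1 motif overlapped a match of another in the members. The window of Fanci held no match to any of the 3 motifs. The E2F letters were in 6 of 29 member windows, 20.7%, against 2.32% of the windows of all 27025 genes and 4.56% of the 7651 tested genes with a window. In windows of genes of the replication fork the share was 10 of 24, and in windows of mitosis genes 1 of 22. In windows of other recombination and Fanconi genes it was 3 of 43, 6.98%. CCAAT was in 18 of 29 member windows, 62.1%, against 37.9% of all windows and 39.4% of those of tested genes. Among the members that were higher in CK1i with an unadjusted p under 0.05 it was in 2 of the 5 with a window (40%), and among those higher with groups apart in 2 of 6 (33.3%). The E2F letters were in 2 of those 5 (40%) and 3 of those 6 (50%). These sets are small and their shares were not tested. TTTGAA was in 1 of 29 member windows, that of Bard1. Its share was 18.1% of all windows, 12.0% of those of tested genes and 17 of 22 windows of mitosis genes. The members with an E2F match were Brca2, Bard1, Rad51c, Fancg, Topbp1 and Chek2, whose log2 fold changes were 0.97, 0.58, 0.54, 0.36, 0.07 and -0.04. A match is a run of letters, not a measured site, and its part in any difference was not tested.

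Setting CK1i against CTRL libraries shows how RNA levels in leukaemia cells differed after the recipients were dosed with the inhibitor. No member passed the threshold, an adjusted p under 0.05 over all tested genes by edgeR's quasi-likelihood test, and nor did any of the 10067 tested genes (0%). Of the 37 members 35 had enough counts to test. Their values were higher in CK1i for 26 and lower for 9, with a median log2 fold change of 0.33, where 48.8% of all tested genes were higher and the median was -0.0055. With an unadjusted p under 0.05, 7 members were higher, 20% of those tested, where the share over all genes was 2.70%. They were Brca2, Rad54b, Fancd2, Rad51ap1, Bard1, Fanci and Brip1. No member was lower at that level, where the share over all genes was 2.00%.

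The differences were uneven over the roles. The BRCA complexes with their partners, the RAD54 translocases and the FANCD2 and FANCI pair gave all 7 of these members. The kinases of the damage checkpoint, the Fanconi core complex and the genes of break sensing and end resection gave none. Median log2 fold changes were 0.62 for the BRCA complexes and partners (6 tested), 0.42 for the group of Xrcc2, Xrcc3, Rad51c and Rad51d (4), 0.85 for the RAD54 translocases (2), 0.80 for FANCD2 and FANCI (2), 0.21 for break sensing, resection and dissolution (7), 0.052 for the Fanconi core complex (7) and -0.0077 for the checkpoint with 53BP1 (7). No test of the difference between roles was made. The roles, like the other lists, were drawn with earlier results of these data known.

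**Figure D1:**
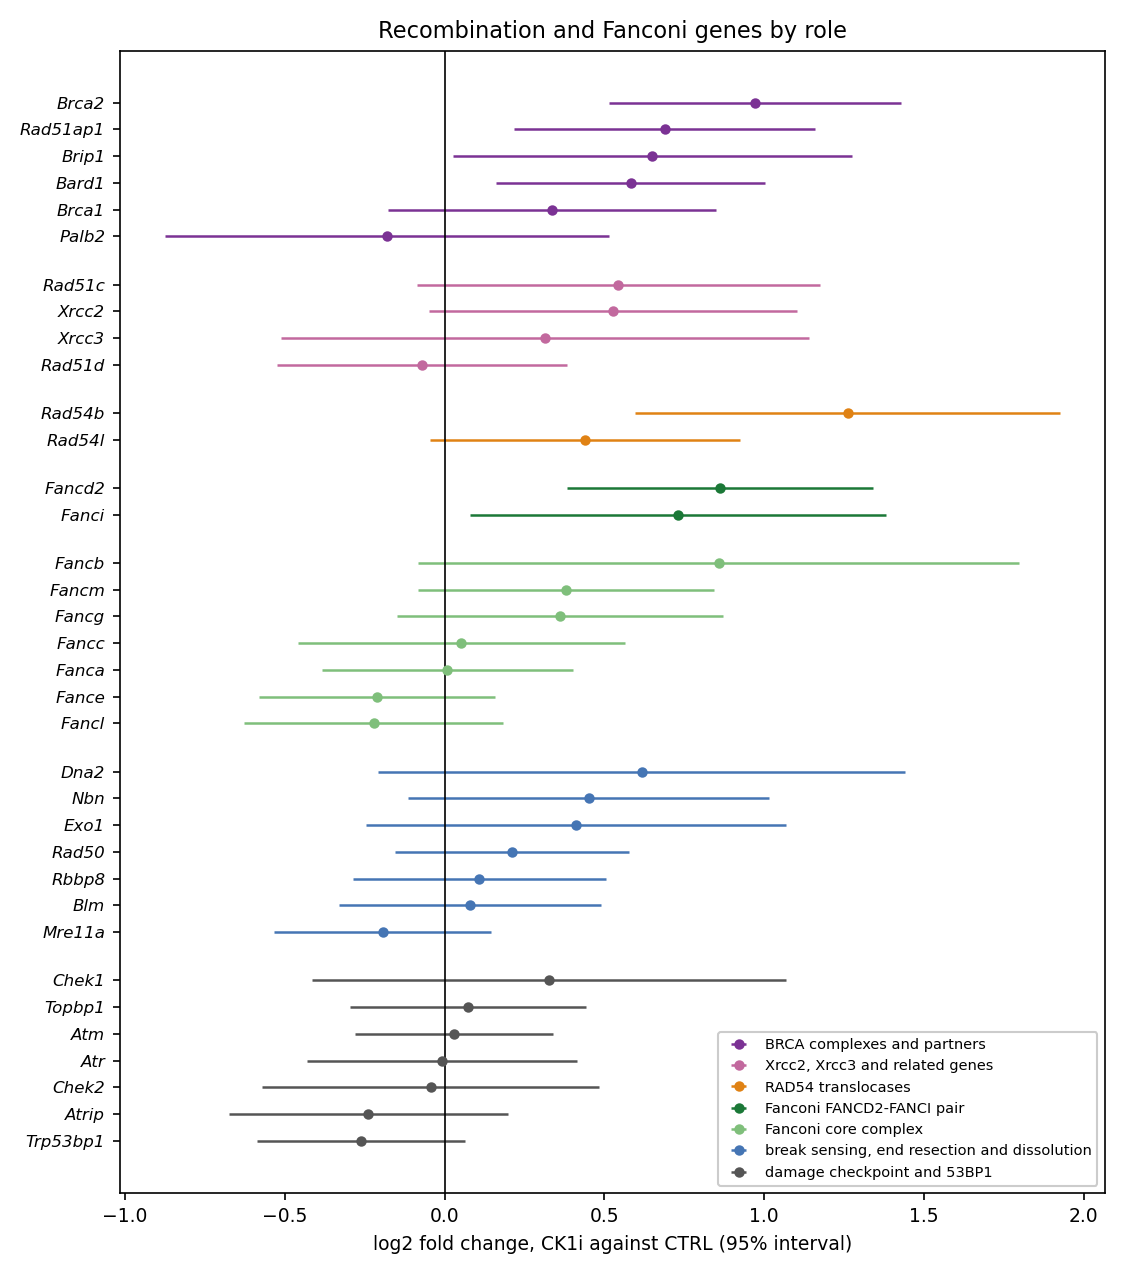
Log2 fold change of CK1i against CTRL (horizontal axis, points) with its 95% interval (bars) for the 35 tested members, grouped by role. Intervals lie wholly above 0 for Brca2, Rad51ap1, Brip1, Bard1, Rad54b, Fancd2 and Fanci, and cross 0 for the other members.

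**Figure D2:**
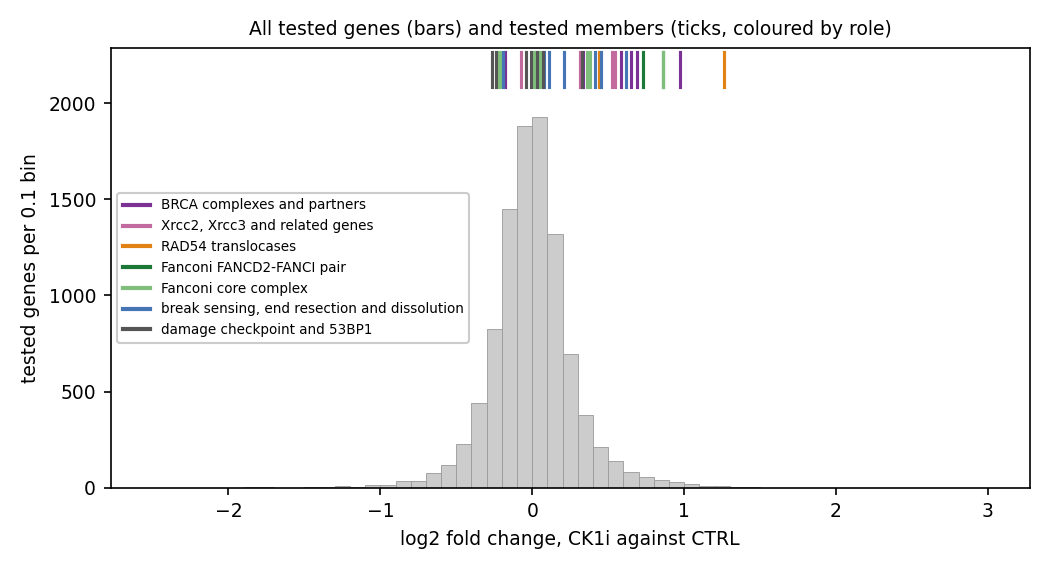
Number of tested genes per bin of 0.1 in log2 fold change (bars, 10067 genes) and the 35 tested members as ticks above them, coloured by role. Member ticks run from -0.26 for Trp53bp1 to 1.26 for Rad54b, with more of them to the right of 0 than to the left.

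Brca2 encodes a large protein that acts on the single-stranded ends. The gene (ENSMUSG00000041147) lies at chromosome 5, 150522630 to 150570329, on GRCm38. Its level was 30.6, 48.0 and 36.9 CPM in CK1i replicates 1 to 3 and 16.0, 22.0 and 21.03 CPM in CTRL replicates 1 to 3. The groups did not overlap, and the lowest CK1i library was above the highest CTRL library. The log2 fold change was 0.97 ± 0.21 (SE; edgeR adjusted p = 0.409), with a 95% interval of 0.51 to 1.43. Brca2 ranked 10 by p among all tested genes. Its adjusted p was 0.397 in DESeq2, 0.699 in limma-voom and 0.0538 in edgeR with no filter on low counts. With each library left out in turn edgeR's unadjusted p ran from 0.00023 to 0.0050, and its adjusted p was 0.176 or more.

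Palb2, which joins BRCA2 to BRCA1, had 5.92, 13.7 and 8.02 CPM in CK1i and 8.87, 12.8 and 10.0 CPM in CTRL. The CK1i values spread around the CTRL values, and the log2 fold change was -0.18 ± 0.32 (SE), with a 95% interval of -0.88 to 0.51.

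Brca1, the ubiquitin ligase that starts this chain, had 21.7, 33.6 and 26.9 CPM in CK1i and 14.9, 25.9 and 24.4 CPM in CTRL. The groups overlapped, and CTRL replicate 1 held the lowest value. The log2 fold change was 0.34 ± 0.24 (SE), and it was 0.12 without CTRL replicate 1 and 0.16 without CK1i replicate 2. Bard1, the obligate partner of BRCA1 in the ligase (ENSMUSG00000026196), had 53.6, 85.1 and 58.6 CPM in CK1i and 36.9, 51.1 and 44.1 CPM in CTRL. The groups did not overlap, although CK1i replicate 1 lay close to CTRL replicate 2. Its log2 fold change was 0.58 ± 0.20 (SE; edgeR adjusted p = 0.929), and 0.35, with an unadjusted p over 0.05, without CK1i replicate 2, the highest library.

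Rad51ap1, which encodes a protein that helps DNA strands pair, had 21.7, 30.3 and 27.7 CPM in CK1i and 14.2, 20.4 and 15.02 CPM in CTRL. All CK1i libraries were above all CTRL libraries, and the log2 fold change was 0.69 ± 0.22 (SE; edgeR adjusted p = 0.840). Brip1, also known as FANCJ, is a helicase that binds BRCA1. It had 30.6, 34.6 and 25.3 CPM in CK1i and 9.94, 26.3 and 21.7 CPM in CTRL. CK1i replicate 3 lay just under CTRL replicate 2, and CTRL replicate 1 was far below the other libraries. Its log2 fold change was 0.65 ± 0.29 (SE; edgeR adjusted p = 0.999) and 0.33 without CTRL replicate 1.

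**Figure D3:**
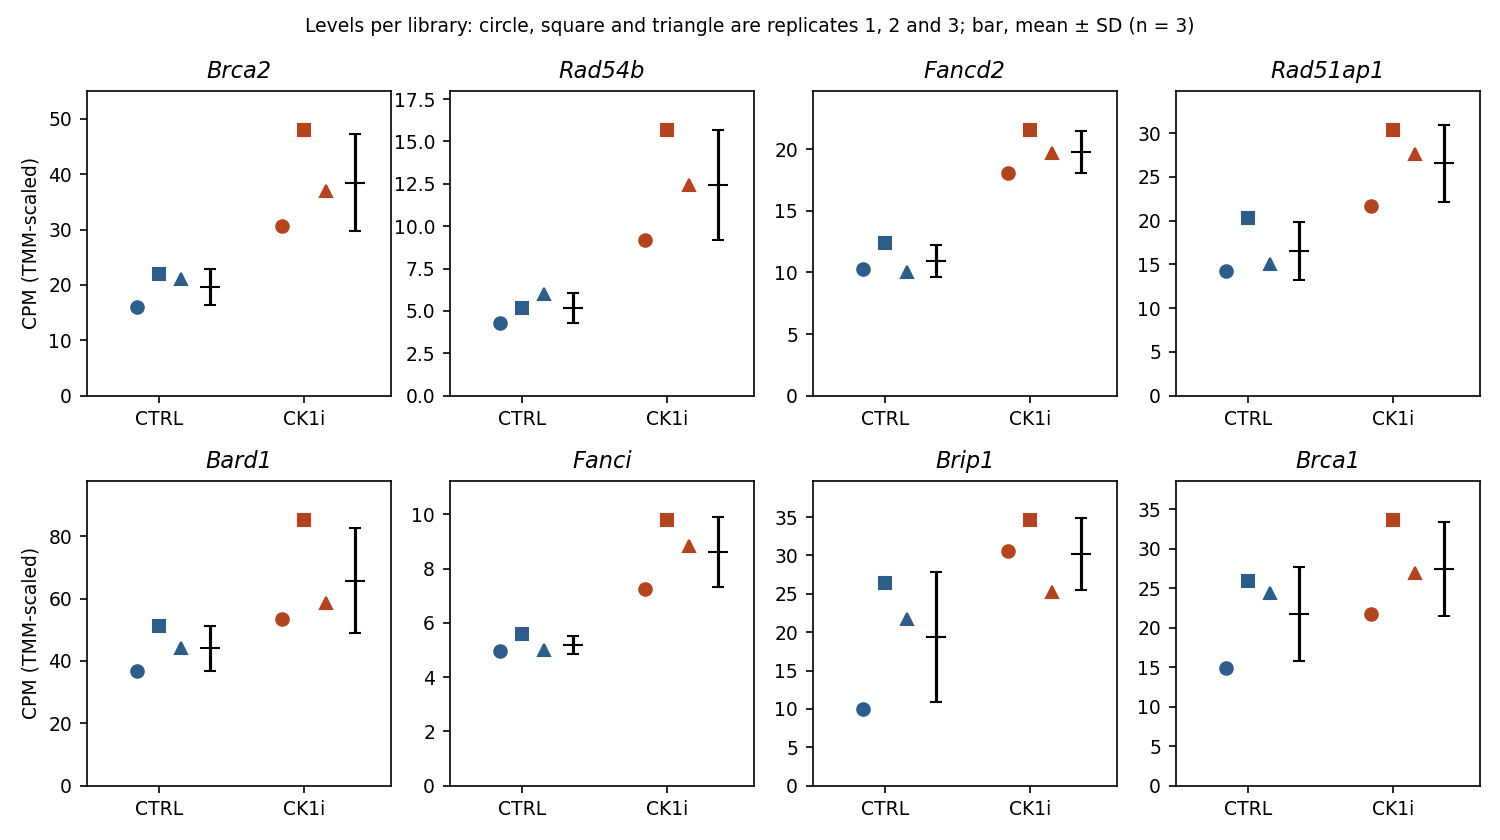
Level in TMM-scaled CPM (vertical axis, from 0) in each library (points; circle, square and triangle are replicates 1, 2 and 3) with mean ± SD (n = 3) for the 7 members with an unadjusted p under 0.05 and for Brca1. For Brca2 the CK1i libraries sit at 30.6 CPM or more and the CTRL libraries at 22.0 CPM or less, while the groups overlap for Brip1 and Brca1.

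Among tested members, Rad54b differed most. It encodes a DNA translocase that works on paired strands. The gene (ENSMUSG00000078773) lies at chromosome 4, 11558922 to 11615805. Its level was 9.21, 15.7 and 12.4 CPM in CK1i and 4.26, 5.19 and 6.01 CPM in CTRL, from 150 counts over the 6 libraries. The groups did not overlap. The log2 fold change was 1.26 ± 0.31 (SE; edgeR adjusted p = 0.493), with a 95% interval of 0.60 to 1.93. Fsbp, a gene on the same strand that shares exon sequence with Rad54b, held 21 counts. The related translocase Rad54l had 27.6, 34.3 and 28.9 CPM in CK1i and 16.0, 29.9 and 21.4 CPM in CTRL. Its groups overlapped through CTRL replicate 2, and the log2 fold change was 0.44 ± 0.23 (SE; 95% interval -0.046 to 0.92), or 0.24 without CTRL replicate 1 and 0.69 without CTRL replicate 2.

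Rad51b, Rad51c, Rad51d, Xrcc2 and Xrcc3 encode related proteins that form small complexes in recombination. Rad51c had 7.57, 12.1 and 10.4 CPM in CK1i and 6.03, 7.19 and 7.34 CPM in CTRL. The groups did not overlap, but the gap between the nearest libraries was less than the worth of 1 count, and the log2 fold change was 0.54 ± 0.29 (SE; 95% interval -0.09 to 1.17). Xrcc2 had 12.5, 17.9 and 18.8 CPM in CK1i and 8.16, 14.4 and 11.7 CPM in CTRL. Only CK1i replicate 1 lay within the CTRL range, and the log2 fold change was 0.53 ± 0.27 (SE; 95% interval -0.05 to 1.10), or 0.33 without CTRL replicate 1. Xrcc3 and Rad51d had log2 fold changes of 0.31 ± 0.39 and -0.071 ± 0.21 (SE). Xrcc3 had 64 counts in all, against 1934 for Klc1, which overlaps its exons on the other strand. Rad51b was too low to test, with 8, 14 and 5 counts in CK1i and 9, 3 and 6 in CTRL, 45 in all.

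FANCD2 and FANCI form the clamp that the Fanconi core complex ubiquitinates. Fancd2 (ENSMUSG00000034023) lies at chromosome 6, 113531682 to 113597017. Its level was 18.1, 21.5 and 19.7 CPM in CK1i and 10.3, 12.4 and 10.0 CPM in CTRL. Each group was tight and the groups were apart. The log2 fold change was 0.86 ± 0.22 (SE; edgeR adjusted p = 0.599), with a 95% interval of 0.38 to 1.34, and it stayed between 0.79 and 0.95 with each library left out in turn. Fanci had 7.24, 9.79 and 8.82 CPM in CK1i and 4.97, 5.59 and 5.01 CPM in CTRL. Its groups did not overlap either, with 14 to 30 counts per library, and the log2 fold change was 0.73 ± 0.30 (SE; edgeR adjusted p = 0.999). Polg, on the other strand, shares exon sequence with Fanci and held 1164 counts to its 117, so Fanci counts are uncertain. Polg had a log2 fold change of -0.14 ± 0.15 (SE). The unadjusted p of Fanci was under 0.05 in 2 of the 6 fits with a library left out, and that of Brip1 likewise.

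Of the 7 tested genes of the Fanconi core complex 5 had higher and 2 lower values, none with an unadjusted p under 0.05. Fancb had 4.61, 6.85 and 7.22 CPM in CK1i and 3.90, 5.19 and 1.34 CPM in CTRL. It rests on 81 counts, with overlapping groups and a log2 fold change of 0.86 ± 0.44 (SE; 95% interval -0.08 to 1.80). That value was 0.45 without CTRL replicate 3. Fancm, a translocase that recruits the complex to DNA, had 24.3, 29.0 and 24.1 CPM in CK1i and 14.6, 22.0 and 23.0 CPM in CTRL. The groups were apart by a narrow margin, and the log2 fold change was 0.38 ± 0.22 (SE; 95% interval -0.08 to 0.84), or 0.20 without CTRL replicate 1. The core subunits Fancg, Fancc and Fanca had log2 fold changes of 0.36 ± 0.24, 0.052 ± 0.24 and 0.0084 ± 0.18 (SE). That of Fancg was 0.21 without CTRL replicate 1. Fancc and Fanca, like Rad54l and Mre11a among the other members, overlap exons of another expressed gene, so their counts are uncertain. Ankrd49, the partner of Mre11a on the other strand, held 658 counts to its 893 and had a log2 fold change of -0.42 ± 0.19 (SE), where Mre11a had -0.19.

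A pair of core genes had lower values in every CK1i library. Fancl, the ubiquitin ligase of the complex, had 23.0, 23.2 and 22.9 CPM in CK1i and 25.6, 31.5 and 23.7 CPM in CTRL. The margin to CTRL replicate 3 was small, and the log2 fold change was -0.22 ± 0.19 (SE; 95% interval -0.63 to 0.18). Vrk2, on the other strand, shares exon sequence with Fancl and held 1047 counts to its 420. Fance, a core subunit that binds FANCD2, had 33.6, 32.0 and 26.5 CPM in CK1i and 38.0, 34.7 and 34.1 CPM in CTRL. CK1i replicate 1 and CTRL replicate 3 were nearly level, and the log2 fold change was -0.21 ± 0.17 (SE; 95% interval -0.58 to 0.16). Fancf was too low to test, with 7, 8 and 11 counts in CK1i and 7, 10 and 8 in CTRL, 51 in all.

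Break sensing and resection genes had overlapping groups throughout. Nbn, a subunit of the MRE11 complex that finds broken ends, had 13.8, 16.3 and 17.2 CPM in CK1i and 7.81, 12.0 and 14.7 CPM in CTRL. CTRL replicate 3 lay within the CK1i range, and the log2 fold change was 0.45 ± 0.26 (SE; 95% interval -0.11 to 1.02). It was 0.23 without CTRL replicate 1 and 0.68 without CTRL replicate 3, where edgeR's unadjusted p was 0.0359. The other subunits of that complex differed in sign, with 0.21 ± 0.17 for Rad50 and -0.19 ± 0.16 for Mre11a (SE). The nucleases Dna2 and Exo1 had 0.62 ± 0.38 and 0.41 ± 0.30 (SE), and Exo1 ran from 11.4 to 26.3 CPM within CTRL alone. Without CTRL replicate 1 these values were 0.26 and 0.17. Leaving out CK1i replicate 2 gave 0.13 for Exo1, and leaving out CTRL replicate 2 gave 0.78, where edgeR's unadjusted p was 0.0173. Rbbp8, which starts resection, had 0.11 ± 0.18, and Blm, the helicase that also takes apart joined DNA molecules, 0.080 ± 0.19 (SE).

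Checkpoint genes were split, with 3 of 7 higher and 4 lower in CK1i. Atm, the kinase that answers to breaks, had 71.1, 81.9 and 71.0 CPM in CK1i and 68.5, 69.9 and 81.1 CPM in CTRL. The values interleave, and the log2 fold change was 0.029 ± 0.14 (SE), with a 95% interval of -0.28 to 0.34. Atr, the kinase of stalled forks, had -0.0077 ± 0.20 (SE) with an interval of -0.43 to 0.42. Topbp1, which activates ATR, had 0.073 ± 0.17, and the effector kinases Chek2 and Chek1 had -0.043 ± 0.25 and 0.33 ± 0.34 (SE). Chek1 spread widely inside each group, over 16.8 to 33.3 CPM in CK1i and 11.7 to 29.5 CPM in CTRL. Its log2 fold change was 0.033 without CK1i replicate 2, 0.058 without CTRL replicate 1 and 0.71 without CTRL replicate 2, where edgeR's unadjusted p was 0.0395, so single libraries set its value.

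A pair of genes of this role had lower values in all CK1i libraries. Trp53bp1 encodes 53BP1, which shields broken ends from resection and so opposes BRCA1. It had 76.0, 78.6 and 75.4 CPM in CK1i and 80.6, 85.0 and 110.2 CPM in CTRL. The groups were apart, with CTRL replicate 3 well above the others, and the log2 fold change was -0.26 ± 0.15 (SE; 95% interval -0.59 to 0.06). It was -0.35 without CTRL replicate 1, where edgeR's unadjusted p was 0.0401, and -0.11 without CTRL replicate 3. Tubgcp4 shares exon sequence with it on the other strand and held 754 counts to its 1430. Atrip, the partner of ATR, had 19.4, 15.01 and 17.2 CPM in CK1i and 19.5, 20.8 and 20.7 CPM in CTRL. CK1i replicate 1 was nearly level with CTRL replicate 1, and the log2 fold change was -0.24 ± 0.20 (SE; 95% interval -0.68 to 0.20).

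Groups did not overlap for 8 members with higher values, 22.9% of those tested, where the share over all genes was 5.22%. They were Brca2, Rad54b, Fancd2, Rad51ap1, Bard1, Fanci, Rad51c and Fancm. The 4 lower members whose groups were apart, Trp53bp1, Fance, Fancl and Atrip, made up 11.4%, where the share over all genes was 4.48%.

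CTRL replicate 1 was the lowest library for 21 of the 37 members, where it was lowest for 21.8% of all tested genes. CK1i replicate 2 was the highest library for 22 members, where it was highest for 14.7% of all genes. CK1i replicate 2 also had the lowest plasma-cell marker sum, 1029 CPM where the other libraries had 1720 or more, the lowest immunoglobulin share, 2.70% of counts where the others had 3.50% or more, and the lowest sum of B-cell and CLL markers, 18379 CPM where the others had 21303 or more. The part of these in the members' differences was not tested. CTRL replicate 1 and CK1i replicate 2 were also the lowest and the highest in genes of the cell division cycle. Over 32 genes of the replication fork the summed level was 1691, 2885 and 2646 CPM in CTRL replicates 1 to 3 and 2955, 3456 and 2713 CPM in CK1i replicates 1 to 3. Over 26 mitosis genes it was 1001, 1795 and 1716 CPM in CTRL and 2222, 3354 and 2215 CPM in CK1i. No gene of either list passed the threshold, while 21 of 25 tested mitosis genes and 5 of 32 fork genes were higher with an unadjusted p under 0.05, and none was lower. The members summed to 815, 1036 and 1011 CPM in CTRL and to 964, 1196 and 1062 CPM in CK1i, so their groups overlapped, as those of the fork genes did, while those of the mitosis genes did not. In bulk RNA, a larger share of dividing cells and more RNA per cell cannot be told apart. The part of cell division in the members' differences was not tested.

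**Figure D4:**
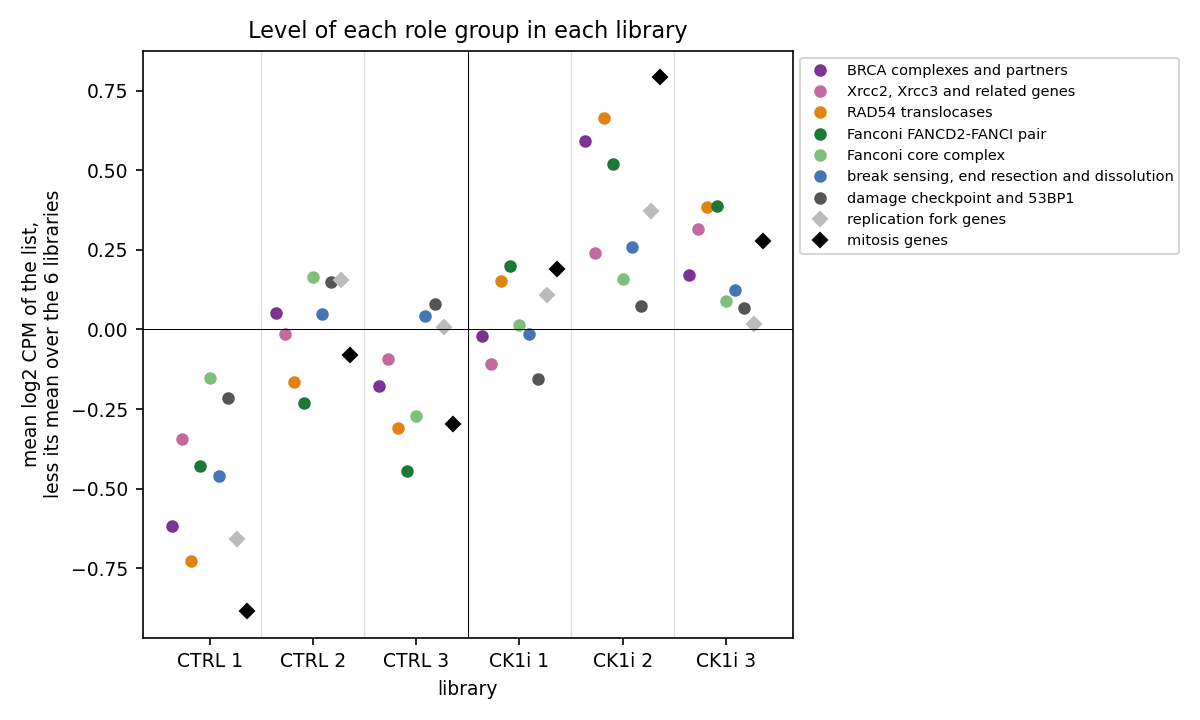
Mean log2 CPM of each role group in each library, less its mean over the 6 libraries (vertical axis), with genes of the replication fork and of mitosis as diamonds. For the BRCA complexes and partners the means before centring run from 3.97 in CTRL replicate 1 to 5.18 in CK1i replicate 2, and for the mitosis genes from 4.76 to 6.44. The checkpoint group stays between 5.14 and 5.51.

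Without CTRL replicate 1, 24 of 36 members had higher values and the median log2 fold change was 0.11 (-0.0015 over all genes). In that fit 5 higher members had an unadjusted p under 0.05 (3.07% of all genes). Without CK1i replicate 2 the median was 0.13 (-0.0056 over all genes). At an unadjusted p under 0.05, 4 higher members remained: Brca2, Rad54b, Fancd2 and Rad51ap1 (1.73% of all genes). Without CTRL replicate 2 there were 12 (3.61% of all genes). Brca2, Rad54b, Fancd2 and Rad51ap1 were under 0.05 with any 1 of the 6 libraries left out.

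Other genes of recombination and the Fanconi pathway were taken from a list of 50, of which 48 were tested. None passed the threshold, 37 had higher and 11 lower values, and the median log2 fold change was 0.10. Polq, the polymerase of an error-prone route that rejoins resected ends, had 0.81 ± 0.25, and Ube2t, the ubiquitin-conjugating enzyme that serves FANCL, 0.80 ± 0.28 (SE).

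Neighbouring repair lists had medians below the 0.33 of the members. The medians of the replication fork genes and of the mitosis genes, 0.37 and 0.85, were above it. CTRL replicate 1 was the lowest library for 30 of the 32 fork genes and for 21 of the 37 members. Among 13 tested genes of BRCA1-A and ubiquitin signalling at breaks the median was 0.10, and Rnf168, a ubiquitin ligase of chromatin at breaks, had 0.45 ± 0.17 (SE). Among 15 partners of the ATR checkpoint it was 0.15, with 0.83 ± 0.35 (SE) for Clspn, the adaptor through which ATR reaches CHK1. End joining with shieldin (16 tested) had a median of 0.019, and Xrcc1, a scaffold of single-strand break repair kept in that list, had 0.49 ± 0.17 (SE). Mismatch and excision repair (27 tested) had a median of -0.013, with 1.01 ± 0.24 for Neil3, a glycosylase that also unhooks crosslinks, and -0.34 ± 0.15 for Polb, the gap-filling polymerase of base excision repair (SE). For p53 targets, which damage signalling can switch on, 17 of 22 had lower values, with a median of -0.13 and -0.48 ± 0.16 for Zmat3, an RNA-binding protein gene, and -0.35 ± 0.17 (SE) for Cdkn1a, the cell cycle inhibitor p21. None of these lists had a gene past the threshold.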

How the data were processed

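The authors deposited raw counts per gene, 1 column for each of the 6 libraries of 3' ends, and no column or row was left unassigned. Per the submitters' processing notes, tools included STAR 2.7.3a, featureCounts 1.6.3, UMI-tools 1.1.1 and Trimmomatic 0.36, with GRCm38.p6 as the build. The strand setting, and whether molecular identifiers were collapsed, are not given in the sources used here. Without strand, reads of genes that overlap on opposite strands cannot be told apart. On either strand, 18 of the 37 members share exon bases with another gene. For 10 members the largest such gene held over 10% of the member's counts. Those that overlap exons of Brca2 and Fancd2 held 0 counts.

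The whole table was fitted in edgeR 4.0.16 (R 4.3.3) with filterByExpr (minimum count 10, minimum total 15), TMM scaling and glmQLFit with robust set and legacy off. Tests were two-sided, with Benjamini-Hochberg adjustment over 10067 genes. The SE is the size of the log2 fold change over the root of F. Log2 CPM used a prior count of 2. On simulated data the procedure called 9 of 50 genes changed 1.5-fold and 34 of 50 changed 2-fold, so small differences can go uncalled. That simulation changed 200 of 10067 genes, some of them 3-fold or 4-fold, and gave 4 false calls. In the real data no gene was called, so these shares need not hold there. Between pairs of libraries the chi-square over its degrees of freedom was 4.02 to 10.7, so no pair agreed within sampling noise, and all libraries carry 1 batch label. Alternatives were DESeq2 1.42.0, limma-voom (limma 3.58.1), RLE size factors, immunoglobulin genes left out of library sizes, no filter, a minimum count of 20, and each library left out in turn.

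Positions and overlaps came from GENCODE M21 (GRCm38), which matched 54165 of 54232 identifiers. Where RefSeq gives several promoter windows for a gene, the first was used. By rule, values per library are given for members with an unadjusted p under 0.05 or with groups that do not overlap, and for the member with the smallest p in each role. In other lists up to 3 genes with the smallest p could be named. Fewer are, and none of the fork or mitosis genes. Brca1, Palb2, Rad54l and Atm were added with their values known. Members and lists were chosen with earlier results of these data known. Of the symbols in the lists, 5 were not found. One gene of the lists is not reported here.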

Additional observations from a re-analysis of the deposited data

How the results depend on the processing

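No paired analysis was possible because the labels give the groups no shared replicate numbers. In edgeR no gene was called. DESeq2 called 5 genes and edgeR without a filter on low counts 3, of which none was a member, and limma-voom called 0. No member was called under any alternative, and with edgeR 473 genes had an unadjusted p under 0.05. With each library left out in turn, edgeR called 0 to 1 genes (1 without CK1i replicate 2, CTRL replicate 1 or CTRL replicate 3). Over those fits 4 to 12 members were higher and 0 to 1 lower at an unadjusted p under 0.05, the members' median log2 fold change ran from 0.11 to 0.45, and 8 to 15 members were higher with groups apart (14 without CK1i replicate 1 and 15 without CTRL replicate 2, where leaving out a library raised that share over all genes to 9.05% to 11.1%). The cause of these moves was not tested. Among 417 log2 fold changes of single members under the alternatives, 21 turned sign, all with a library left out. They were those of Palb2 (-0.60 to 0.066), Rad51d (-0.25 to 0.021), Blm (-0.10 to 0.21), Fanca (-0.055 to 0.060), Fancc (-0.093 to 0.21), Atm (-0.047 to 0.11), Atr (-0.23 to 0.17), Chek2 (-0.19 to 0.21) and Topbp1 (-0.092 to 0.21), and the cause was not tested. Depth limits Rad51b, Fancf, Xrcc3, Fancb, Dna2 and Fanci most, with 45 to 117 counts each over the 6 libraries.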
